A study of Mus musculus with 6 samples.

Results

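The collagen genes of subcutaneous white adipose tissue (scWAT) were compared between 3 control libraries and 3 libraries labelled as lacking YAP and TAZ in adipocytes. Members were all genes whose symbol is Col, a number, a and a second number, and 44 of the 55401 annotated genes met that rule. Of these, 35 passed the filter on low counts and were among the 16807 genes tested. The members were sorted by chain type into 11 fibrillar, 8 basement membrane, 6 type VI and 9 FACIT genes (fibril-associated collagens with interrupted triple helices), 4 transmembrane collagens and 6 others, of which 9, 8, 6, 5, 3 and 4 were tested.

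RNA-seq was made from the scWAT of male mice at 8 weeks of age. YT-FF mice carried floxed alleles of both Yap and Taz and no Cre, and the labels also call them WT. YT-AKO mice carried the same floxed alleles together with AdipoqCre, a Cre recombinase under the promoter of Adipoq, a gene of mature adipocytes and not of the fibroblasts, vessel cells, nerve sheath cells and immune cells of the depot. The controls carried no Cre, so Cre itself was not controlled for. Each group had 3 libraries, numbered 1 to 3, from as many mice, and the p-values measure the spread between these samples.

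Collagens are secreted proteins of 3 chains wound into a triple helix, and their chains carry long repeats in which every 3rd residue is glycine. Fibrillar collagens (types I, III and V above all in soft tissue) make the tensile fibres around fat lobules. Type IV collagen is the network of the basement membrane that wraps each adipocyte and capillary, and type VI collagen makes beaded filaments beside it. FACIT collagens sit on the surface of fibrils, and type VII makes the anchoring fibrils that tie a basement membrane to the matrix beneath it. In fat most fibrillar collagen is made by fibroblasts and adipose progenitors, while adipocytes and vessel cells contribute to type IV and type VI. YAP and TAZ are coactivators that act through the TEAD DNA-binding proteins, and they are best known in the matrix field for responding to tissue stiffness.

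The libraries held 17740987 to 21838493 counts over genes. Yap1 counts in the control libraries were 1622, 1300 and 1295, against 649, 492 and 529 in those labelled YT-AKO, a log2 fold change of -0.98 (SE 0.167, edgeR adjusted p = 0.0179), which is lower as the label says. Counts of Wwtr1, the gene of TAZ, were 1818, 1729 and 1918 against 3015, 2253 and 2716, a log2 fold change of 0.89 (SE 0.182, edgeR adjusted p = 0.022), which goes against the label. A count over all exons does not show whether the floxed exons are missing, and the directions below are therefore those of the libraries as labelled. Long genes had lower values in the libraries labelled YT-AKO, and the library labelled YT-AKO 2 was the most extreme of them. The adipocyte markers were well expressed, with a summed TPM (a level per length of exon, scaled to the same sum in each library) of 15328 to 22211 in YT-FF and 17906 to 20618 in YT-AKO, and 2 of 8 were called higher. B cell markers were at a summed TPM of 1360 to 1658 in YT-FF and 692 to 773 in YT-AKO, with 3 of 6 called lower. Skeletal muscle markers reached 3983 in YT-AKO 1 and lay between 206 and 685 in the other libraries, and 1 of 7 tested was called higher. Macrophage markers were at 2561 to 3191 against 2748 to 2953 with 1 of 7 called higher, and T cell markers were at 510 to 798 against 337 to 573 with 1 of 6 called lower. Over all tested genes, 12.6% were called higher and 9.01% lower. In TPM, 54.5% of all tested genes were lower in every YT-AKO library than in every control.

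Collagen RNA was a small and unequal share of the tissue's RNA. The 44 genes took 0.775%, 0.917% and 0.925% of the counts of the controls and 1.13%, 0.561% and 1.06% of those of the YT-AKO libraries, each in the order 1, 2, 3. YT-AKO 2 lay below every other library and the remaining pair of YT-AKO libraries lay above every control. The summed level of all collagens was 3129, 3728 and 3852 TPM in YT-FF and 3885, 1487 and 3594 TPM in YT-AKO. The 13 most abundant members held 97.4% of that summed TPM over all libraries, and Col3a1 alone held 27.2%. Col3a1, Col1a1 and Col4a1, the chains of type III, type I and the common form of type IV, together held 55.3%. At the other end, 14 members had a mean below 1 TPM. Bulk tissue cannot tell fewer cells of a type from less RNA in each cell.

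The direction of every class except the transmembrane collagens depended on the scale. In TPM the mean over YT-AKO was below that over YT-FF in each class, with log2 ratios of -0.14 for fibrillar, -0.51 for basement membrane, -0.30 for type VI, -0.57 for FACIT, -0.78 for transmembrane and -0.54 for other collagens. In CPM after scaling libraries by the trimmed mean of M-values (TMM CPM, counts per fixed library size, the scale of the tests below), the same log2 ratios were 0.46, 0.073, 0.34, 0.049, -0.074 and 0.27. Without YT-AKO 2 the TPM ratio of the fibrillar class was 0.19 and that of type VI was 0.00. A TPM value is divided by exon length before each library is scaled to the same sum, and 34 of the 35 tested collagens are longer than the median gene.

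**Figure D1:**
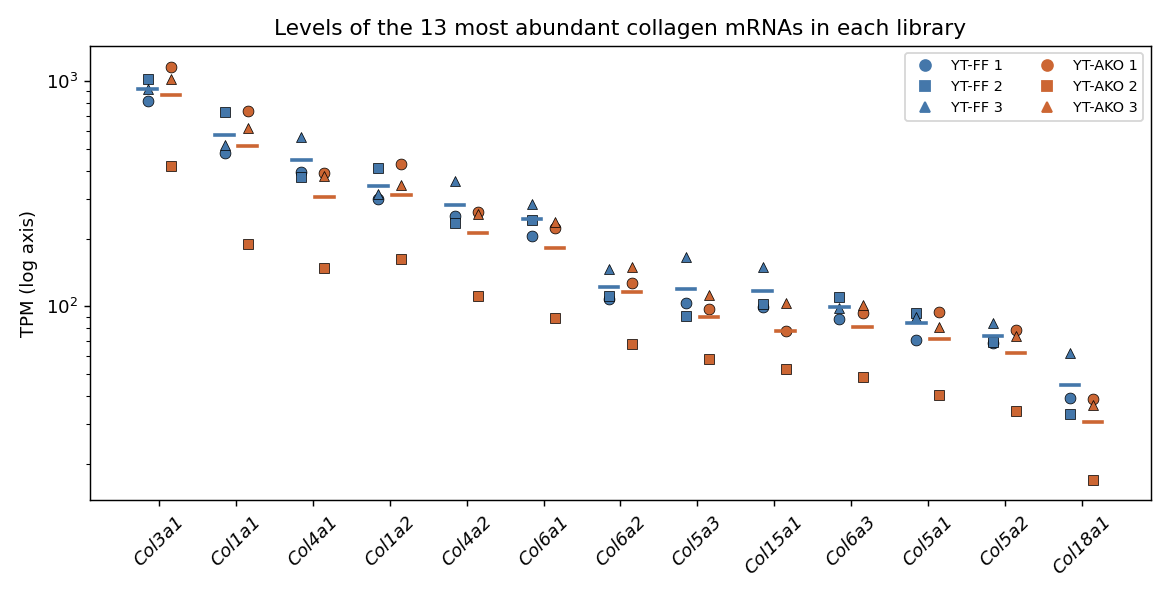
Levels of the 13 most abundant collagen genes in TPM on a log axis, ordered by mean TPM over all libraries. Colours mark the 3 YT-FF and the 3 YT-AKO libraries, and short lines the group means. The fibrillar chains Col3a1, Col1a1 and Col1a2 and the type IV chains Col4a1 and Col4a2 are the highest, and the lowest YT-AKO point of these genes is YT-AKO 2.

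Across all tested genes, the quasi-likelihood test of edgeR, adjusted by the Benjamini-Hochberg method, called 12.6% higher and 9.01% lower when libraries labelled YT-AKO were compared with YT-FF. Among the 35 tested collagens it called 1 higher (2.86%) and 2 lower (5.71%), both shares below those of all genes. The gene called higher was Col7a1, and those called lower were Col6a4 and Col4a6. Col4a6 passed the filter on low counts only through YT-FF, so its low YT-AKO values could be tested only if the groups differed. All 3 are expressed at a low level in this tissue, and no abundant collagen passed the test. An unadjusted p under 0.05 was reached by 6 members and by 6852 of the 16807 genes. The median log2 fold change of the tested collagens was 0.17, with 24 positive and 11 negative, against a median of -0.02 over all tested genes. By class the median was 0.37 for fibrillar, 0.40 for type VI, 0.14 for FACIT, 0.02 for basement membrane, -0.07 for transmembrane and -0.23 for other collagens. With library totals alone as the scale, the median of all genes moved to -0.34, that of the collagens was -0.13, and no collagen was called higher.

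**Figure D2:**
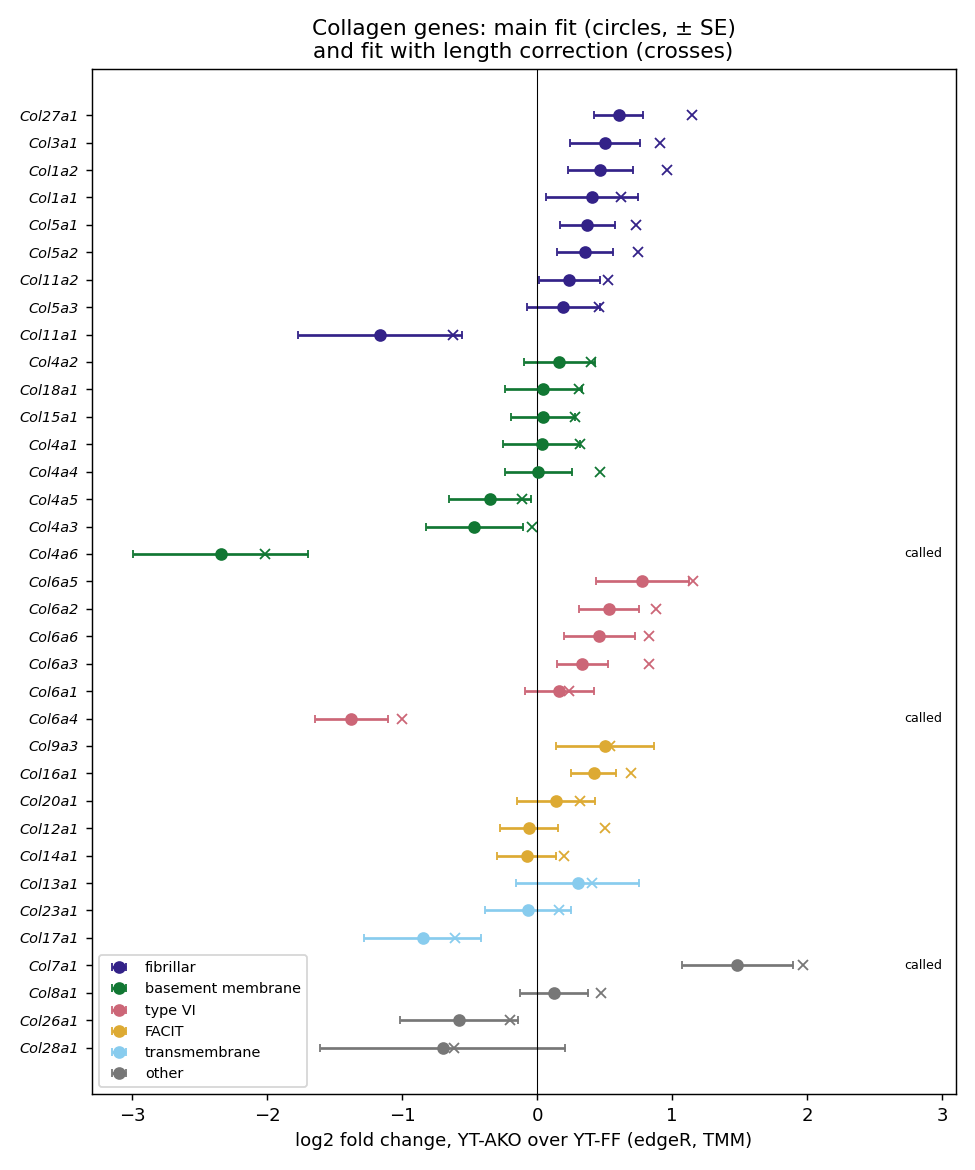
Log2 fold change of each tested collagen gene between libraries labelled YT-AKO and YT-FF (circles, with bars of 1 SE), grouped by class. Crosses give the values of the fit with the length correction. The called genes Col7a1 (1.48), Col6a4 (-1.38) and Col4a6 (-2.34) stand farthest from 0, and 8 of 9 fibrillar genes lie to the right of 0.

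No fibrillar collagen was called, although 8 of the 9 tested had a positive log2 fold change. Col3a1, the single chain of type III collagen, was at 2087, 2543 and 2497 TMM CPM in YT-FF and 4079, 2357 and 3678 in YT-AKO. YT-AKO 1 and 3 were above every control and YT-AKO 2 was among the controls, and the log2 fold change of 0.51 (SE 0.26) did not pass (edgeR adjusted p = 0.182). Without YT-AKO 2, a library singled out after its values were seen, it was 0.71 and was called (edgeR adjusted p = 0.010). Leaving out each library in turn gave 0.35 to 0.71, with edgeR adjusted p from 0.010 to 0.42.

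Type I collagen, the main tensile fibre, is built from Col1a1 and Col1a2 chains. Col1a1 was at 822, 1207 and 948 TMM CPM in YT-FF and 1729, 711 and 1499 in YT-AKO, so that YT-AKO 2 was the lowest and YT-AKO 1 and 3 the highest of the 6 libraries. Its log2 fold change was 0.40 (SE 0.34, edgeR adjusted p = 0.396), and 0.70 without YT-AKO 2 (edgeR adjusted p = 0.021). Over single libraries left out it ran from 0.16 to 0.70 (edgeR adjusted p from 0.021 to 0.76). Col1a2 was at 972, 1290 and 1083 against 1905, 1156 and 1572 TMM CPM, with the same order of YT-AKO libraries. Its log2 fold change was 0.47 (SE 0.243, edgeR adjusted p = 0.183), and 0.64 without YT-AKO 2 (edgeR adjusted p = 0.021). Over single libraries left out it ran from 0.30 to 0.64 (edgeR adjusted p from 0.021 to 0.44).

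Type V collagen sits inside type I fibrils and sets their diameter. Col5a1 was at 158, 203 and 213 TMM CPM in YT-FF and 289, 198 and 256 in YT-AKO, a log2 fold change of 0.37 (SE 0.205, edgeR adjusted p = 0.207). Col5a2 was at 171, 169 and 224 against 270, 188 and 261, a log2 fold change of 0.35 (SE 0.207, edgeR adjusted p = 0.235). Both chains had the pattern of Col3a1 and Col1a2, with YT-AKO 1 and 3 above every control and YT-AKO 2 among the controls. Both were called without YT-AKO 2 (edgeR adjusted p = 0.039 each). Leaving out each library in turn gave log2 fold changes of 0.25 to 0.51 for Col5a1 and 0.27 to 0.50 for Col5a2. Their edgeR adjusted p ran from 0.039 to 0.52 and from 0.039 to 0.51. Col5a3, a chain that joins some type V molecules, was at 183, 156 and 312 against 237, 227 and 282, so YT-FF 3 was the highest library and the groups overlapped (log2 fold change 0.20).

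The less abundant fibrillar genes did not share that order. Col27a1, whose product is a fibrillar collagen with a shortened helix best known from cartilage, was at 28.4, 20.1 and 20.1 TMM CPM in YT-FF and 34.6, 34.6 and 35.3 in YT-AKO. Its YT-AKO libraries lay within 1 TMM CPM of each other and above all controls, and the log2 fold change of 0.60 (SE 0.183) missed the threshold narrowly (edgeR adjusted p = 0.0508). DESeq2 called it (adjusted p = 0.041). Col11a2 was at 9.25, 9.80 and 6.59 against 10.5, 10.7 and 9.04, with overlapping groups. Col11a1 was at 0.852, 0.879 and 0.515 against 0.465, 0.413 and 0.118 and passed the filter on low counts only through YT-FF. Markers of cartilage, where type II and type XI collagen are at home, were near 0 (summed TPM 4.91 to 6.94 in YT-FF and 3.52 to 4.32 in YT-AKO, none of 3 tested called, Matn3 and Snorc at 0 in every library). Col2a1, the cartilage collagen, had 0 to 3 counts per library and was not tested.

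Markers of adipose progenitors and fibroblasts, the cells that make most fibrillar collagen, were set beside these values. Of the 13 tested, 3 were called higher and 1 lower (12.6% and 9.01% over all genes), with a median log2 fold change of 0.48 and a summed TPM of 1740 to 2474 in YT-FF and 1805 to 2833 in YT-AKO. In YT-AKO 2, where Col1a1 was lowest, Pi16 was at its highest (384 TMM CPM, against 192 to 207 in YT-FF and 282 and 333 in YT-AKO 1 and 3) and Pdgfra at its lowest (38.3, against 56.0 to 74.5 and 97.0 and 70.0). These were named after their values were seen, and the part of these cells in the collagen values was not tested.

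The basement membrane class was close to 0 in the tests. The main type IV chains, Col4a1 and Col4a2, lie head to head on opposite strands, Col4a1 at chr8:11198423-11312826 on the minus strand and Col4a2 at chr8:11312805-11449287 on the plus strand (mm10). Their annotated starts overlap by 22 bases, shown in capitals in the RefSeq sequence of chr8:11312801-11312830 (GRCm38.p6, plus strand) because both genes begin within it.
Col4a1 and Col4a2: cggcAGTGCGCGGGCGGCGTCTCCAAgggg

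Col4a1 was at 767, 712 and 1167 TMM CPM in YT-FF and 1046, 631 and 1036 in YT-AKO, a log2 fold change of 0.04 (SE 0.285, edgeR adjusted p = 0.935). Col4a2 was at 435, 392 and 664 against 623, 422 and 627, a log2 fold change of 0.17 (SE 0.266, edgeR adjusted p = 0.664). In both genes YT-FF 3 was the highest of the 6 libraries, and the groups overlapped. Col15a1 and Col18a1 encode proteoglycan collagens of basement membranes. Col15a1 was at 163, 164 and 264 against 176, 191 and 242, a log2 fold change of 0.04 (SE 0.24), and Col18a1 was at 59.0 to 121 and 68.2 to 97.4, a log2 fold change of 0.05 (SE 0.285), again with YT-FF 3 as the highest library. All 4 of these log2 fold changes were below 0 with library totals alone as the scale.

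The minor type IV chains were low, and one of them was called. Counts of Col4a6 were 17, 23 and 14 in the controls against 5, 2 and 1 (0.725, 1.01 and 0.721 against 0.291, 0.118 and 0.059 TMM CPM), so every library labelled YT-AKO was below every control. Its log2 fold change was -2.34 (SE 0.648, edgeR adjusted p = 0.0406). The gene passed the filter on low counts only through YT-FF, so that a gene with these low YT-AKO counts could be tested only if it differed, and the adjusted p ran from 0.038 to 0.164 when each library was left out in turn. Col4a6 (chrX:141165403-141474076, minus strand) also lies head to head with Col4a5, with RefSeq starts 1344 bases apart. Col4a5 was at 10.9, 14.4 and 11.4 against 10.9, 5.72 and 12.2 TMM CPM, with only YT-AKO 2 below the controls (log2 fold change -0.35, SE 0.303, edgeR adjusted p = 0.41). The TPM ratio of Col4a5 to Col4a6 was 17.8, 16.9 and 18.8 in YT-FF and 44.4, 57.6 and 246 in YT-AKO, a pair chosen for description after the values were seen.

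The chains Col4a3 and Col4a4, partners of Col4a5 in kidney and lung basement membranes, were at 1.06 to 1.85 and 4.04 to 5.36 TMM CPM over all libraries, and neither was called (log2 fold changes -0.47 and 0.01). Col4a3 was lower in each YT-AKO library than in each control, but 5.65% of its exon bases overlap another annotated gene and the count did not use strand. Markers of mural cells (summed TPM 452 to 467 in YT-FF and 207 to 335 in YT-AKO, none of 8 called), endothelium (437 to 486 and 162 to 323, 1 of 8 called lower) and Schwann cells (283 to 391 and 164 to 190, none of 8 called), which also lay down basement membranes, were lower in TPM in the libraries labelled YT-AKO. Epithelial markers were at 9.81 to 10.5 and 3.63 to 7.21 with Krt5 at 0 and 1 of 3 tested called lower, and mesothelial markers were at 3.55 to 5.77 and 2.13 to 3.17 with Upk3b at 0 and the single gene tested not called. Of all tested genes, 54.5% were lower in TPM in every YT-AKO library than in every control, and 9.01% were called lower. In TMM CPM, 2 mural, 5 endothelial and 0 Schwann cell markers of 8 each were lower in that way, against 25.8% of all genes. The part of these cell types in the type IV values was not tested.

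Type VI collagen held both a gene called lower and, for the rest, positive values. Its main chains Col6a1, Col6a2 and Col6a3 form the beaded filaments of fat, and none was called. Col6a3 was at 275, 334 and 326 TMM CPM in YT-FF and 402, 332 and 447 in YT-AKO, a log2 fold change of 0.34 (SE 0.185, edgeR adjusted p = 0.207). Col6a2 was at 233, 235 and 338 against 381, 323 and 460, a log2 fold change of 0.53 (SE 0.224, edgeR adjusted p = 0.116). Col6a1 was at 234, 268 and 347 against 349, 222 and 380, a log2 fold change of 0.17 (SE 0.253, edgeR adjusted p = 0.647). In all 3 genes YT-AKO 3 was the highest library and YT-AKO 2 the lowest of its group.

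Col6a4, Col6a5 and Col6a6 are 3 neighbouring genes on the minus strand of chromosome 9 whose chains can take the place of Col6a3. They lie at chr9:105989454-106096783, chr9:105856078-105960643 and chr9:105687809-105828160 (mm10). Col6a4 was at 10.3, 10.02 and 6.80 TMM CPM in YT-FF (242, 228 and 132 counts) and 4.13, 3.24 and 3.07 in YT-AKO (71, 55 and 52 counts). Each library labelled YT-AKO was below each control, and the log2 fold change was -1.38 (SE 0.269, edgeR adjusted p = 0.0205). Leaving out each library in turn gave adjusted p from 0.010 to 0.116. Of the gene's exon bases, 3.39% overlap other annotated genes.

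Col6a5 and Col6a6 did not fall with their neighbour. Col6a5 was at 9.16, 12.2 and 7.78 TMM CPM in YT-FF and 24.2, 9.67 and 16.1 in YT-AKO (log2 fold change 0.78, SE 0.346, edgeR adjusted p = 0.131). Col6a6 was at 10.95, 10.7 and 11.02 against 18.5, 9.61 and 16.8 (log2 fold change 0.46, SE 0.263, edgeR adjusted p = 0.221). In both, YT-AKO 1 and 3 were above all controls and YT-AKO 2 was not. The TPM ratio of Col6a5 to Col6a4 was 0.805, 1.10 and 1.04 in YT-FF and 5.31, 2.70 and 4.76 in YT-AKO, and that of Col6a6 to Col6a4 was 0.988, 0.991 and 1.51 against 4.18, 2.76 and 5.08. Neither ratio overlapped between the groups, in YT-AKO 2 as in the other libraries, and the log2 fold changes of the genes differed by 2.16 and 1.84. These ratios were chosen after the values of the genes were seen and are given with no test.

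**Figure D3:**
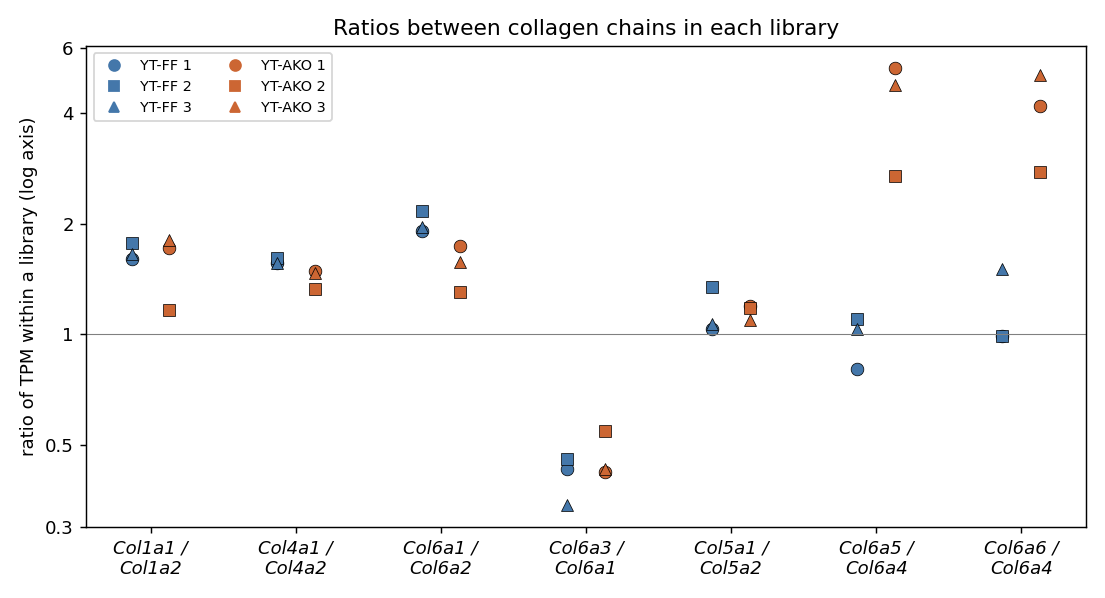
TPM ratios of collagen chains in each library on a log axis, with one colour for the YT-FF and another for the YT-AKO libraries. Ratios of Col6a5 and Col6a6 to Col6a4 are 0.805 to 1.51 in YT-FF and 2.70 to 5.31 in YT-AKO, while the ratio of Col1a1 to Col1a2 overlaps between the groups.

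The sequences just before these 3 genes are shown to let them be compared, since neighbours within one locus had values in opposite directions. They are RefSeq windows of up to 250 bases (GRCm38.p6), read on the minus strand at chr9:106096784-106096941, chr9:105960644-105960893 and chr9:105828161-105828335 and ending before the first annotated transcribed base. Capitals mark CCAAT, the box bound by NF-Y, and GGAATG, the core bound by TEAD proteins, on either strand.
Col6a4: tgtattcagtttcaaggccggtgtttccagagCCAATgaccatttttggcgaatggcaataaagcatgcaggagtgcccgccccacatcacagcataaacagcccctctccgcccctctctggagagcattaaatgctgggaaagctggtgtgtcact
Col6a5: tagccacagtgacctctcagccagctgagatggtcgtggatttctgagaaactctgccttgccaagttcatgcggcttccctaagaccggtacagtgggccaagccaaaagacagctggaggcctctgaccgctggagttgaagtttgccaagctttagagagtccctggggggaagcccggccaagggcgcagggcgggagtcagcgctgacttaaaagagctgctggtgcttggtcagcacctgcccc
Col6a6: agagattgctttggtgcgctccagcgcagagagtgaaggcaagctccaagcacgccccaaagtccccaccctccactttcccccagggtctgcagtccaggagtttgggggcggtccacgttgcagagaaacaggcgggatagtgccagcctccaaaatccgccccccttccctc

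The stretch before Col6a4 held 1 CCAAT, and those before Col6a5 and Col6a6 held neither motif. Over windows from 250 bases before to 50 after the start, 35 of the 44 collagen genes had at least 1 entry, with 38 windows in all. GGAATG stood on either strand in 5 of the 38 windows (13.2%) against 14.7% of the windows of all genes, and its collagen genes were Col18a1, Col20a1, Col3a1, Col4a6 and Col6a2. CCAAT on either strand stood in 13 (34.2%) against 37.4%, and TATAAA on the sense strand in 5 (13.2%) against 8.32%. A match of these letters is a description of the window and not of binding.

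Col7a1 was the single collagen called higher by edgeR, while limma-voom did not call it (adjusted p = 0.0584) and called Col27a1 in its place (adjusted p = 0.0471). It encodes type VII collagen, the anchoring fibril, which is best known from the junction of epidermis and dermis. Its counts were 70, 69 and 37 in the controls against 163, 154 and 62, which is 2.98, 3.03 and 1.91 against 9.48, 9.08 and 3.66 TMM CPM. All libraries labelled YT-AKO were above all controls in TMM CPM, YT-AKO 3 by little, and the log2 fold change was 1.48 (SE 0.41, edgeR adjusted p = 0.0407). In TPM the groups overlapped (1.11, 1.16 and 0.668 against 2.57, 1.55 and 0.968). Leaving out each library in turn gave adjusted p from 0.037 to 0.134. The RefSeq bases before its start (GRCm38.p6, chr9:108953336-108953585, plus strand) are shown because Col7a1 was the member called higher, with CCAAT of either strand in capitals and no GGAATG present.
Col7a1: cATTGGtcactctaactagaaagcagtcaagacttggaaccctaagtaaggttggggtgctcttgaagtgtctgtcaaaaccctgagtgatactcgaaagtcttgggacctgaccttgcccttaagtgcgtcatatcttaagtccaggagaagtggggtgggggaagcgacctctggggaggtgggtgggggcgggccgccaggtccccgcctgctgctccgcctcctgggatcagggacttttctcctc

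No FACIT or transmembrane collagen was called. Among the FACIT genes, Col16a1 was at 17.5, 15.03 and 16.9 TMM CPM in YT-FF and 21.9, 23.8 and 20.5 in YT-AKO, without overlap, and its log2 fold change of 0.42 (SE 0.164) did not pass (edgeR adjusted p = 0.097). Col14a1, the most abundant FACIT gene and a fibril-surface chain of mature connective tissue, was at 45.4, 67.0 and 53.6 against 51.7, 41.2 and 64.4 (log2 fold change -0.08). Col12a1, its close relative, was at 12.6, 15.2 and 13.5 against 14.4, 10.2 and 15.2 (log2 fold change -0.06). In both, YT-AKO 2 was the lowest of the 6 libraries and the remaining values overlapped. Col20a1 (5.26 to 9.50 TMM CPM) and Col9a3 (1.29 to 2.71) completed the class, with log2 fold changes of 0.14 and 0.50, and 6.07% of the exon bases of Col9a3 overlap Tcfl5.

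Among the transmembrane collagens, Col17a1, a component of the hemidesmosome, was at 1.58, 1.23 and 1.54 TMM CPM in YT-FF and 0.756, 1.12 and 0.532 in YT-AKO, without overlap (log2 fold change -0.85, SE 0.434, edgeR adjusted p = 0.178). Col23a1 was at 9.12, 8.13 and 9.22 against 6.69, 12.7 and 5.85, with YT-AKO 2 as the highest library and YT-AKO 1 and 3 below every control. Col13a1 was at 0.98 to 2.78 TMM CPM over all libraries with overlapping groups. Of the remaining class, Col28a1, a chain known from peripheral nerve, was at 5.88, 2.77 and 7.88 against 3.90, 0.118 and 6.15, and its value in YT-AKO 2 came from 2 counts. Col8a1, a short-chain collagen of vessel walls, was at 3.82 to 5.60 with a log2 fold change of 0.13, and Col26a1 was below all controls in each YT-AKO library (0.772 to 1.19 against 0.581 to 0.767) without a call.

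Over all classes, 3 tested members were higher and 6 lower in every YT-AKO library than in every control in TMM CPM, against 25.7% and 25.8% of all tested genes. Those higher were Col7a1, Col27a1 and Col16a1, and those lower were Col6a4, Col4a6, Col4a3, Col17a1, Col26a1 and Col11a1. Col4a6 and Col11a1 passed the filter on low counts only through YT-FF, so their place among those lower followed in part from the filter. In TPM the counts were 0 and 12, against 7.52% and 54.5% of all tested genes. The 9 genes not tested had at most 28 counts in a library. They were Col24a1 (2 to 28 counts), Col9a2 (0 to 21), Col22a1 (5 to 17), Col8a2 (3 to 13), Col10a1 (0 to 11), Col25a1 (0 to 4), Col19a1 and Col2a1 (0 to 3 each) and Col9a1 (0 to 1).

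Part of the spread among collagens followed 1 library. YT-AKO 2 had the lowest TPM of all 6 libraries in 28 of the 35 tested genes and in 13 of the 13 most abundant. In TMM CPM it was the lowest of its group in 21 of 35 and the lowest of all in 9. The shares of all tested genes with YT-AKO 2 lowest were not counted, so these counts do not set the collagens apart. In TPM, 54.5% of all tested genes were lower in every YT-AKO library than in every control. YT-AKO 1 and 3 were both above all controls in TMM CPM in 13 of 35 members and in 11 of the 15 tested fibrillar and type VI genes, against 30.5% of all tested genes. Both this pair of libraries and these classes were picked after their values were seen, so the count of 11 is a description only. The median deviation of the members from their own means, in log2 TMM CPM, was -0.18, -0.13 and 0.08 in YT-FF and 0.20, -0.14 and 0.20 in YT-AKO. For the 3 groups of longest genes, of 10 groups of equal size, these medians were 0.20, 0.22 and 0.13 against -0.07, -0.37 and -0.10.

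**Figure D4:**
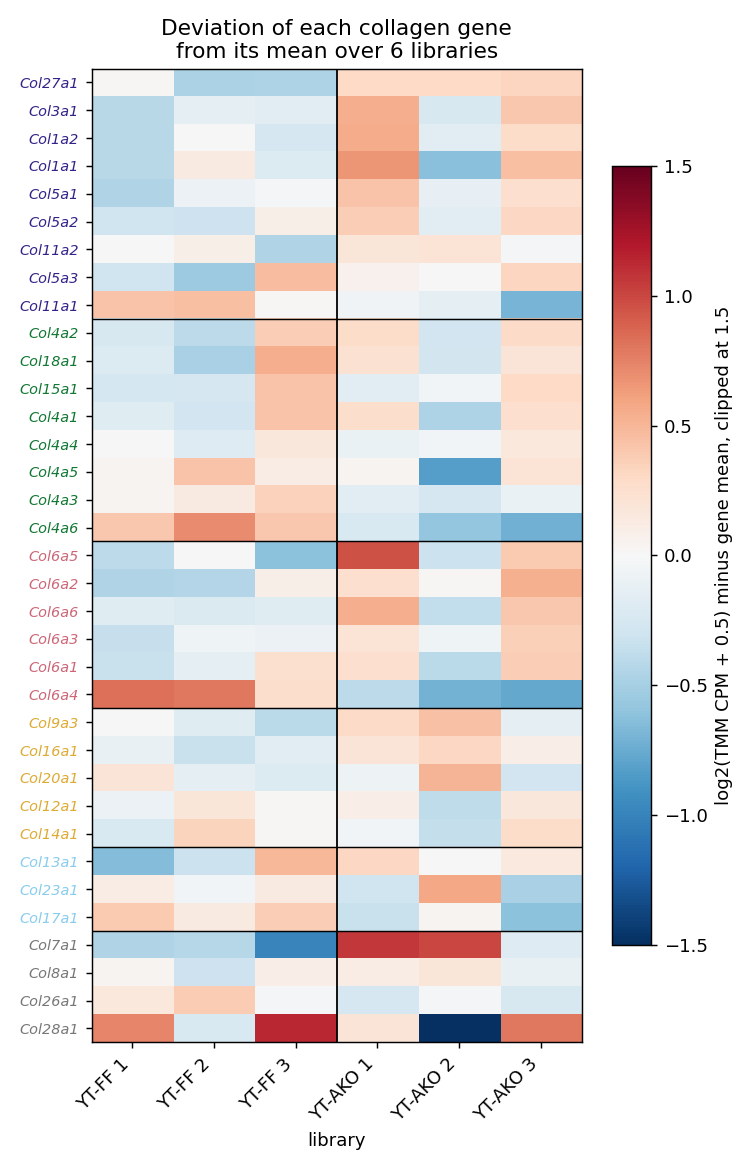
Log2(TMM CPM + 0.5) of each tested collagen gene in each library minus the gene's mean over the 6 libraries, with red above and blue below the mean, and classes separated by lines. Most fibrillar and type VI genes are red in YT-AKO 1 and YT-AKO 3 and pale or blue in YT-AKO 2, while Col6a4 and Col4a6 are blue in all 3 libraries labelled YT-AKO.

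With YT-AKO 2 left out, a library singled out after its values were seen, 11 of 37 tested collagens (29.7%) were called higher by edgeR against 16.9% of all genes, and 2 (5.41%) were called lower against 14.0%. The genes called higher were Col3a1, Col1a1, Col1a2, Col5a1, Col5a2, Col27a1, Col6a2, Col6a3, Col6a5, Col6a6 and Col7a1, and those called lower were Col6a4 and Col4a6. Without YT-FF 1 no gene at all was called (0 of 17183), and without YT-FF 2 the whole table held 0 genes called higher and 2 lower (of 17140), so these fits say nothing about collagens in particular.

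Gene length was compared because it moved with the groups over the whole table. Of the 35 tested collagens, 34 were longer than the median tested gene (3888 bases of exon), with a range of 3853 to 15228. Across all tested genes the log2 fold change correlated with length (Spearman's rho -0.376, genes not being independent replicates), while across the 35 collagens rho was 0.169. The 8120 genes in the collagens' range of lengths had a median log2 fold change of -0.23, with 34.4% above 0, 6.0% called higher and 13.3% called lower. In the longest of 10 equal groups of genes (9322 bases or more) the median was -0.52 over all genes and 0.35 over the 11 collagens there, among them Col3a1, Col1a2, Col5a2 and Col6a3. Of the 35 collagens, 28 lay above the median of their own length group, and the median difference from it over all 35 was 0.43. The collagens therefore did not share the lower values of other long genes, with exceptions such as Col6a4 and Col4a6 (-1.01 and -1.98 from the medians of their groups).

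**Figure D5:**
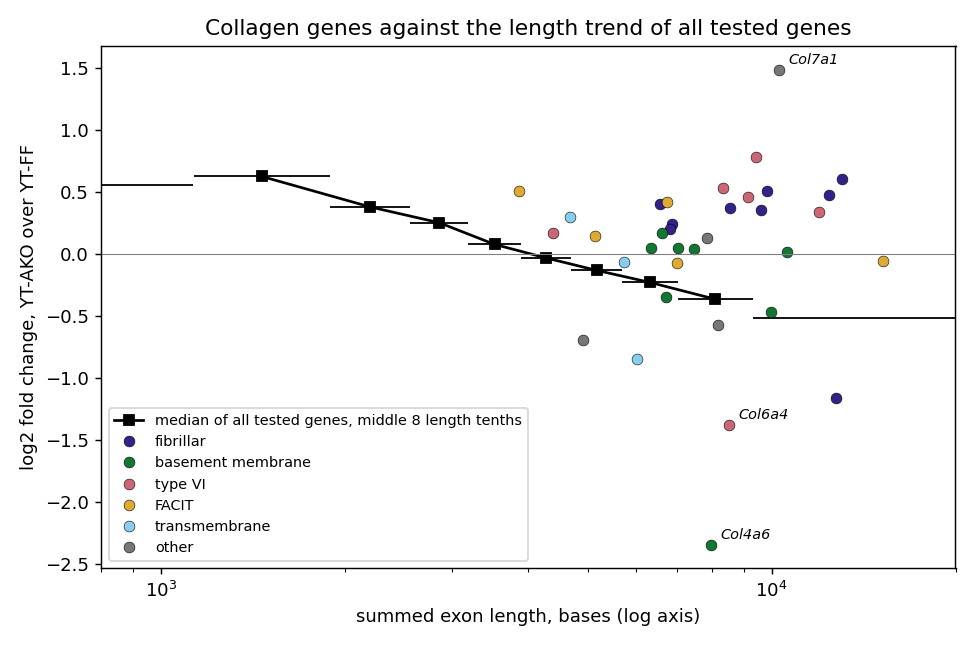
Log2 fold change between libraries labelled YT-AKO and YT-FF against exon length on a log axis, with each tested collagen as a point coloured by class. Black bars give the median of each of 10 length groups of all tested genes. A line joins all but the shortest and longest groups. The median is 0.56 in the shortest group, 0.62 in the next and -0.52 in the longest, and 28 of the 35 collagens lie above that of their group.

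When a smooth trend of each library on gene length was taken out before the test, edgeR called 11 collagens higher (31.4%, against 10.1% of all genes) and 1 lower (2.86%, against 4.54%). Their median log2 fold change was 0.46, against 0.06 for all genes. The genes called higher were Col3a1, Col1a2, Col5a1, Col5a2, Col27a1, Col16a1, Col6a2, Col6a3, Col6a5, Col6a6 and Col7a1. Of these, 10 were also called without YT-AKO 2. Col6a4 stayed called at a log2 fold change of -0.999 (edgeR adjusted p = 0.0419), and Col4a6 was at -2.02 without a call (edgeR adjusted p = 0.0675). Col1a1, the shortest of the abundant fibrillar genes, was at 0.62 without a call (edgeR adjusted p = 0.167). No basement membrane gene was called after this correction. Taking out the trend moves long genes up as a group, so the calls of this fit are relative to genes of like length.

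Chains that share a molecule were also set against each other. Type I collagen has Col1a1 and Col1a2 chains in fixed numbers, and the TPM ratio of Col1a1 to Col1a2 was 1.60, 1.77 and 1.66 in YT-FF and 1.72, 1.16 and 1.81 in YT-AKO, with YT-AKO 2 lowest (exact permutation p = 0.9, two-sided). The ratio of Col4a1 to Col4a2 was 1.56, 1.61 and 1.56 against 1.49, 1.33 and 1.47, and that of Col6a1 to Col6a2 was 1.90, 2.17 and 1.95 against 1.74, 1.31 and 1.57. In both of these pairs each library labelled YT-AKO was below each control (exact permutation p = 0.1 each, 0.25 after Benjamini-Hochberg adjustment over 5 ratios), by 0.15 and 0.38 on the log2 scale. The ratios of Col6a3 to Col6a1 and of Col5a1 to Col5a2 overlapped (exact permutation p = 0.6 and 0.9). With 3 libraries against 3 the smallest p this test can give is 0.1, so no ratio could pass a threshold of 0.05. The exon length behind a TPM covers all annotated isoforms, so the level of these ratios also rests on the annotation.

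The counts of genes around collagen are to be read against the 12.6% of all tested genes called higher and 9.01% called lower, and over the lists together 10 genes were called higher and 2 lower. Of 21 tested genes of collagen synthesis and folding, 5 were called higher and none lower, with a median log2 fold change of 0.30. P4ha1, a catalytic subunit of prolyl 4-hydroxylase, was at 45.9, 37.3 and 42.1 TMM CPM in YT-FF and 129, 87.6 and 75.5 in YT-AKO (log2 fold change 1.22, SE 0.225, edgeR adjusted p = 0.019). Serpinh1, the collagen chaperone HSP47, was at 282, 253 and 357 against 593, 509 and 561 (log2 fold change 0.90, SE 0.193, edgeR adjusted p = 0.024). P4ha2 (0.88), the chaperone Fkbp10 (0.91) and the lysyl hydroxylase Plod3 (0.61) were the others. In TMM CPM 11 of the 21 were higher in every YT-AKO library, YT-AKO 2 included, than in every control, against 25.7% of all genes. All 5 called genes were among them, which follows closely from calls made on the same scale and is not separate support. In TPM all 5 overlapped between the groups, and Serpinh1, P4ha2 and Plod3 were lower in YT-AKO 2 than in every control. Of the 21, 2 were lower in TMM CPM in every YT-AKO library than in every control, against 25.8% of all genes. They were Colgalt1 (log2 fold change -0.80) and Mia3 (-0.27). Plod2 was at -0.86 with overlapping groups, and none of these genes was called. Creb3l1, a transcription factor of collagen-secreting cells, had a log2 fold change of 0.78 without a call (edgeR adjusted p = 0.060). It and the other uncalled genes named here and in the next paragraphs were chosen after their values were seen.

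In procollagen processing, 2 of 6 tested genes were called higher and none lower. Pcolce, which enhances removal of the C-terminal propeptide, was at 89.2, 92.8 and 109 TMM CPM in YT-FF and 197, 259 and 216 in YT-AKO (log2 fold change 1.21, SE 0.175, edgeR adjusted p = 0.017), and Pcolce2 had a log2 fold change of 0.55. The propeptide proteases Bmp1 and Adamts2 were at 0.20 and 0.23 without a call. In crosslinking, 1 of 6 was higher and 1 lower. The median log2 fold change of these 6 was -0.25. Loxl1 was at 75.2, 107 and 68.6 against 144, 121 and 165 (log2 fold change 0.78). Lox was at 56.9, 62.8 and 107 against 49.9, 42.1 and 38.6, with every YT-AKO library below every control. Its log2 fold change was -0.79 without a call (edgeR adjusted p = 0.061). Pxdn, the peroxidasin that makes sulfilimine bonds in type IV collagen, was at 179, 188 and 259 against 99.1, 86.8 and 97.6 (log2 fold change -1.14, SE 0.191, edgeR adjusted p = 0.018), while its substrate genes Col4a1 and Col4a2 were near 0.

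Of 11 tested fibril-associated genes, 1 was called higher and 1 lower. They were the small leucine-rich proteoglycans Lum (63.9, 81.6 and 71.2 against 121, 105 and 131 TMM CPM, log2 fold change 0.72) and Prelp (347, 368 and 537 against 102, 74.3 and 164, log2 fold change -1.88). Dcn, a further member of that family, was at 0.39 and Fn1, fibronectin, at -0.18 without a call. Among receptors and uptake genes, 1 of 9 was called higher and none lower. It was Mrc2, the endocytic collagen receptor (log2 fold change 0.62), and the receptors Ddr1 and Ddr2 were at -0.61 and -0.27 without a call. None of 15 basement membrane partners was called in either direction, with a median log2 fold change of -0.35 and 7 of them lower in TMM CPM in every YT-AKO library than in every control, against 25.8% of all tested genes. Perlecan (Hspg2, 486, 482 and 541 against 369, 272 and 393) and nidogen (Nid1, 413, 468 and 559 against 352, 146 and 367) were among these. The median log2 fold change of the basement membrane partners was 0.02 with the length correction, under which Hspg2 was at 0.0038 and Nid1 at -0.50. With the length correction the calls of these lists were 6, 3, 0, 2, 1 and 2 higher and 0, 0, 1, 1, 0 and 0 lower, in the order given here, against 10.1% and 4.54% of all genes. The genes behind these counts changed. Lum (edgeR adjusted p = 0.083) and Loxl1 (edgeR adjusted p = 0.057) lost their call. Plod1, Bmp1, Dcn, Thbs2, Lamb1 and Lamc3 gained one as higher.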

How the data were processed

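RNA-seq of scWAT was analysed in 6 libraries, 3 YT-FF and 3 YT-AKO. Per the labels and file headers, reads were aligned with HISAT2 to mm10 (GRCm38), and the authors deposited whole-number counts per gene from featureCounts v2.0.1 over exons of GENCODE vM25, paired and without strand. Fragments mapping to several places or to overlapping genes are not in such counts, so shared exon bases (13 collagens, at most 6.07%) lose reads. The labels also name DESeq2.

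Counts were tested as deposited with edgeR 4.0.16 (R 4.3.3): TMM normalization, filterByExpr (minimum count 10, minimum total 15), quasi-likelihood fit and test of YT-AKO against YT-FF, Benjamini-Hochberg adjustment over 16807 genes, and a call at an adjusted p under 0.05. TMM CPM and TPM (from the exon length in the files) were computed from the counts. Ratios of chains were tested with exact permutation tests. Alternatives were DESeq2 1.42.0, limma-voom (limma 3.58.1), other scalings and filters, a replicate block, leaving out each library, a length correction (offsets from a natural spline on log length with 6 degrees of freedom for each library) and, added after seeing the data, that correction without YT-AKO 2. Depth was 17740987 to 21838493 counts a library, so counting error is small for abundant collagens and large for those with few counts. Gene symbols came from reference tables (55141 of 55401 matched), and promoter sequences from RefSeq (GRCm38.p6). Same-numbered libraries did not deviate together (correlations 0.126, -0.118 and -0.0893), so numbers were not taken as pairs.

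The members, classes, gene lists and marker lists were chosen with earlier results of these data known. Given in every library were called members and the 10 members with the highest mean TPM. Other members were named with changes or ranges, some also in every library, and of the pathway lists at most 5 called genes each. Exceptions are marked as chosen after their values were seen.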

Additional observations from a re-analysis of the deposited data

How the results depend on the processing

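Limits: with 3 libraries a group, log2 fold changes of 0.35 to 0.51 in Col3a1, Col1a1, Col1a2, Col5a1 and Col5a2 did not pass, and genes under 1 TMM CPM rest on few counts. YT-AKO 2 lay below YT-AKO 1 and 3 in these fibrillar genes, and its part in the missing calls was not tested. The causes of the changes listed here were not tested.

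Of the collagens, 1 was called higher and 2 lower, and of the pathway genes 10 and 2. DESeq2 called 2 collagens higher and 8 pathway genes lower, and DESeq2 size factors in edgeR called 2 collagens higher. limma-voom called 1 collagen higher, Col27a1 and not Col7a1. Upper-quartile scaling called 4 pathway genes lower. Library totals alone called 0 collagens higher, 3 pathway genes higher and 8 lower, with a collagen median of -0.13. Without a filter, or with at least 10 counts in every library, 1 collagen and 5 pathway genes were called lower. With the replicate number as a block, 0 collagens and 0 pathway genes were called in either direction (24 higher and 9 lower over all 16807 genes), and with the block and the length correction 0 collagens, 0 pathway genes higher and 1 lower (59 and 22 over all genes), with a collagen median of 0.47. The numbers share no deviation between groups, so the block is not a pairing. The length correction gave 11 collagens higher and 1 lower (median 0.46), and without YT-AKO 2 as well, a combination added after seeing the data, 13 and 1 (median 0.39) and 22 pathway genes higher. Leaving out each library gave 0 to 11 collagens higher, 0 to 2 lower, 0 to 18 pathway genes higher and 0 to 8 lower. The highest counts came without YT-AKO 2, and all were 0 without YT-FF 1 or YT-FF 2, fits in which the whole table held 0 and 2 called genes. Collagens at an unadjusted edgeR p under 0.05 numbered 5 with the block, 14 with the block and length correction, 4 without YT-FF 1, 4 without YT-FF 2 and 5 with library totals alone.

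Summed classes changed sign from TPM to TMM CPM (fibrillar 0.46, basement membrane 0.073, type VI 0.34, FACIT 0.049, other 0.27, transmembrane still negative at -0.074) and to TMM counts per kilobase (0.45, 0.076, 0.30, 0.066 and 0.075, transmembrane -0.062). When each library was left out, fibrillar ran from -0.42 to 0.19, type VI from -0.52 to 0.0018, and the log2 ratio of Col1a1 to Col1a2 from -0.22 to 0.072 and of Col5a1 to Col5a2 from -0.060 to 0.14.

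Signs of single genes changed as follows, with none of these genes called in the reported test. Library totals alone gave Col20a1 -0.22, Col15a1 -0.27, Col18a1 -0.24, Col4a1 -0.25, Col4a2 -0.13, Col4a4 -0.31, Col11a2 -0.10, Col5a3 -0.11, Col8a1 -0.21 and Col6a1 -0.13. Upper-quartile scaling gave Col4a1 -0.0024 and Col4a4 -0.033, and at least 10 counts everywhere Col4a4 -0.020. The length correction gave Col12a1 0.50, Col14a1 0.20 and Col23a1 0.17, with the block 0.51, 0.20 and 0.043, and without YT-AKO 2 Col12a1 0.55 (edgeR adjusted p = 0.0435, called), Col14a1 0.27, Col20a1 -0.056 and Col4a5 0.10. Over single libraries left out, Col12a1 ran from -0.16 to 0.10, Col14a1 ran from -0.24 to 0.077, Col20a1 ran from -0.15 to 0.32, Col15a1 ran from -0.091 to 0.31, Col18a1 ran from -0.16 to 0.41, Col4a1 ran from -0.10 to 0.29, Col4a4 ran from -0.095 to 0.11, Col8a1 ran from -0.0089 to 0.22 and Col23a1 from -0.49 to 0.15.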
